A study of Homo sapiens with 14 samples.

Results

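The genes examined were 37 genes of glycolysis and of the response to low oxygen (hypoxia), chosen by symbol from the 62703 genes of the count table and all found in it. By role they comprised 17 glycolytic enzymes and 20 others, of which 5 act in transport or in the control of glycolytic flux, 2 in glycogen handling, 3 are HIF1A and its prolyl hydroxylases, and 10 are further targets of hypoxia-inducible factors (HIF). Messenger RNA was measured in 3 prostate cancer cell lines after exposure for 3 days to 1.5 µM SEL120-34A, which blocks the kinases CDK8 and CDK19 of the Mediator complex, or to the solvent alone (dimethylsulfoxide, DMSO). LNCaP and 22Rv1, respectively sensitive and resistant to the antiandrogen drug enzalutamide, had 3 libraries per arm. The androgen-independent line PC3 had 1 library per arm, so its values carry no replicate check. By the labels and methods, all cells grew in RPMI-1640 medium with fetal bovine serum, LNCaP on wells coated with poly-D-lysine, and no low-oxygen treatment is named. The study's methods state in general that experiments used at least 3 biological replicates, but no label says that the 3 libraries of an arm came from separate cultures. If they did not, the p-values measure technical spread.

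Glycolysis splits glucose into pyruvate in the cytosol, and lactate dehydrogenase then turns pyruvate into lactate, which leaves the cell through monocarboxylate transporters. HIF1A is made continuously, but prolyl hydroxylases (EGLN1, EGLN3) use oxygen to mark it for destruction. When oxygen is scarce HIF1A accumulates, pairs with ARNT, binds the short DNA motif ACGTG or GCGTG (the core of the hypoxia response element) and raises the transcription of glucose transporters, most glycolytic enzymes and genes such as VEGFA, CA9 and BNIP3. CDK8 has been described in other cell types as a coactivator of HIF1A target genes. Because HIF1A is controlled mainly through its protein, its mRNA level is no measure of its activity.

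Levels are given as CPM, counts divided by the library's total and brought to 1 common total, with the totals adjusted between libraries by the trimmed mean of M values. Libraries held 246063 to 909176 counts, so 3 counts, taken as the limit below which a gene cannot be said to be absent, corresponded to 3.27 to 12.9 CPM. The 3 treated 22Rv1 libraries were each shallower than the 3 DMSO libraries of that line. Line identity was checked with HOXB13, a prostate lineage factor, at 311, 275 and 278 CPM in LNCaP DMSO, 177, 195 and 185 CPM in 22Rv1 DMSO and 55.5 CPM in PC3 DMSO, and with VIM, a mesenchymal marker, at 1262 CPM in PC3 DMSO against at most 51.5 CPM in any library of the other lines. A test of low counts kept 7086 genes in LNCaP and 22Rv1, among them 28 of the 37 genes: 15 of 17 enzymes and 13 of 20 others. HK2, ALDOA, PFKFB4, EGLN1, ADM, CA9, P4HA2, KDM3A and ANKRD37 were left out and are described by their counts. The libraries assigned 0.948% to 1.79% of their counts to the 37 genes.

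Promoter sequence is shown for 5 genes on which the results below turn: LDHA, which fell in treated LNCaP, its sister gene LDHB, SLC16A3, which rose there, and BNIP3 and ENO2, which differed between the lines in opposite directions. The stretches are the 250 bases before the annotated start in RefSeq (GRCh38.p14), written 5′ to 3′ on the gene's strand, with ACGTG and its reverse complement CACGT in capitals. For LDHA and SLC16A3, which have 2 and 5 annotated starts, the window with the most matches was taken. LDHA is at chr11:18394313-18394562 (plus strand), LDHB at chr12:21657843-21658092 (minus strand), SLC16A3 at chr17:82228792-82229041 (plus strand), BNIP3 at chr10:131981924-131982173 (minus strand) and ENO2 at chr12:6914330-6914579 (plus strand).
LDHA: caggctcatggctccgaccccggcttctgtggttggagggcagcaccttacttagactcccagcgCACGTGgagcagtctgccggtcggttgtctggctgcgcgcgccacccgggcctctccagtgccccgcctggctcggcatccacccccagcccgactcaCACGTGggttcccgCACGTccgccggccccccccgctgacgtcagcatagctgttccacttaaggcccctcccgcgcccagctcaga
LDHB: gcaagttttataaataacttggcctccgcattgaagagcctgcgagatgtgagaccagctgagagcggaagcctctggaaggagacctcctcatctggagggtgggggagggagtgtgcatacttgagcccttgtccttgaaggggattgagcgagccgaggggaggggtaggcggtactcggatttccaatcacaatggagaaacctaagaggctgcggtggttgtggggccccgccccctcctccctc
SLC16A3: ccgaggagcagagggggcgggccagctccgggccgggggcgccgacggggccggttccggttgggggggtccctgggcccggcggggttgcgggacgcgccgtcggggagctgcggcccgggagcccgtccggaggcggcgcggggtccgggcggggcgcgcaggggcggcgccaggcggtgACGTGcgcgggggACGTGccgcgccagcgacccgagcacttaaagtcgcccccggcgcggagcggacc
BNIP3: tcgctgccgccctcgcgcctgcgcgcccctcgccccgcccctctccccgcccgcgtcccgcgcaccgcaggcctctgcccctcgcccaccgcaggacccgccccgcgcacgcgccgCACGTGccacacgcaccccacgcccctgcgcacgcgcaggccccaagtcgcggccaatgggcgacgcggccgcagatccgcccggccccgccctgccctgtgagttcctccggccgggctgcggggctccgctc
ENO2: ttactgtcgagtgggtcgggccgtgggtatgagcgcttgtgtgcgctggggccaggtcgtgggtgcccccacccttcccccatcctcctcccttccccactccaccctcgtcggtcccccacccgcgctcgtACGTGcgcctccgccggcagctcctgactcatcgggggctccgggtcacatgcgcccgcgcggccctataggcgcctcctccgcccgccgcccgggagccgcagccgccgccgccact
The LDHA stretch held ACGTG at 3 sites, of which 2 are the palindrome CACGTG and read the same on both strands. BNIP3 held 1 such palindrome, SLC16A3 held 2 sites and ENO2 1, and LDHB held none. Over windows of 300 bases (250 before the start and 50 after), ACGTG on either strand was present in 21 of the 34 genes with a RefSeq window (61.8%), against 24.9% of the 27305 genes with one. Counted by window, since genes differ in their number of starts, the shares were 39.1% of 64 windows and 21.4% of 35116. With GCGTG added, 31 of the 34 genes (91.2%) and 52.4% of all genes held a match, or 65.6% and 48.4% of windows. VEGFA, BNIP3L and HILPDA had no window. The list was made of glycolysis genes and HIF targets, so a higher share is built into the choice of genes. The comparison genes were not matched for base composition. A match is a string of letters, not a site shown to be bound.

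The first comparison asked what the inhibitor did in LNCaP. LDHA, the lactate dehydrogenase subunit that is the usual HIF target, fell, and SLC16A3, which encodes the lactate exporter MCT4, rose. These were 2 of the 28 genes tested, with an adjusted p under 0.05 in edgeR's quasi-likelihood test (Benjamini-Hochberg over all 7086 genes), a threshold passed by 2.77% of all genes tested. Of all genes 1.99% were called higher and 0.776% lower, and 1 member stood on each side. At an unadjusted p under 0.05 the count was 4 of 28, against 13.5% of all genes.

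LDHA (ENSG00000134333.15, chromosome 11, 18394560 to 18408425) was at 1037, 1175 and 1072 CPM in the 3 LNCaP DMSO libraries and at 549.7, 705 and 807 CPM in the 3 treated ones. All treated libraries lay below all controls. The fitted log2 fold change was -0.62 (SE 0.128, adjusted p = 0.00246). It kept its call with each library left out in turn (log2 fold changes of -0.75 to -0.51, adjusted p at most 0.0421), but not with all libraries thinned to the smallest total (-0.56, adjusted p = 0.100) nor with limma-trend, run on the authors' log2 values (-0.68, adjusted p = 0.0625).

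SLC16A3 (ENSG00000141526.18, chromosome 17, 82217934 to 82261129) was at 42.3, 55.0 and 33.6 CPM in LNCaP DMSO and at 101, 56.9 and 112 CPM after SEL120-34A. The groups did not overlap, although the second treated library stood just above the highest control. The log2 fold change was 1.13 (SE 0.268, adjusted p = 0.0114), from 21 to 53 counts per library. The call was lost without DMSO replicate 3 (0.96, adjusted p = 0.124), without SEL120-34A replicate 1 (1.05, adjusted p = 0.0757) and without SEL120-34A replicate 3 (0.90, adjusted p = 0.133), as well as with the DESeq2 Wald test (1.12, adjusted p = 0.109), limma-trend (0.96, adjusted p = 0.313) and thinning (1.17, adjusted p = 0.384).

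**Figure D1:**
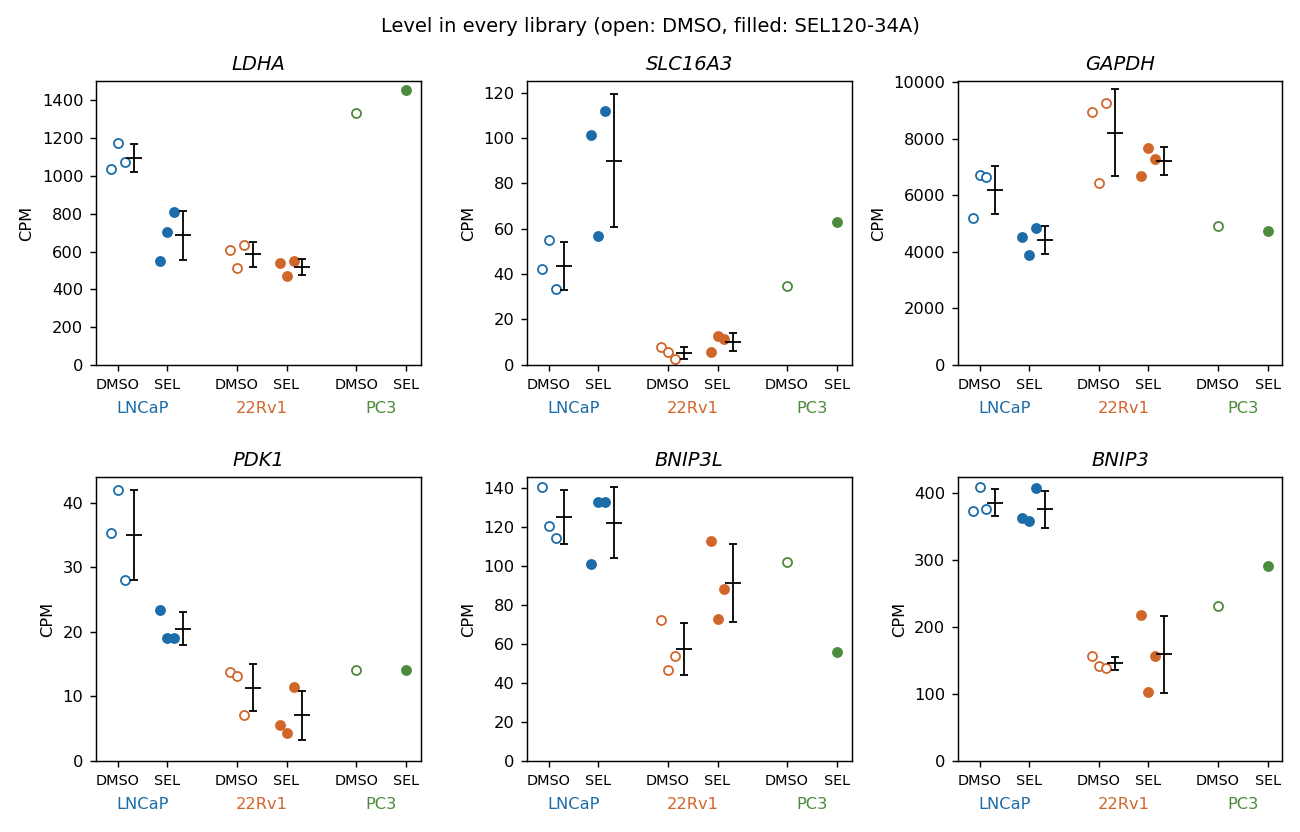
Level of 6 genes in every library, in CPM on axes that start at 0, with open circles for DMSO, filled circles for SEL120-34A and black bars for the mean and SD of 3 libraries (PC3 has 1 library per arm). LDHA is lower and SLC16A3 higher in all 3 treated LNCaP libraries than in the 3 controls, and BNIP3L is higher in all 3 treated 22Rv1 libraries without passing the test.

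The other enzymes of the pathway did not pass the test in LNCaP. GAPDH, which makes the first high-energy phosphate of the lower pathway, came closest: it was at 5216, 6705 and 6645 CPM in DMSO and 4530.4, 3873 and 4832 CPM in treated libraries. These groups did not overlap, and the log2 fold change was -0.46 (SE 0.133, adjusted p = 0.0507). Its adjusted p ranged from 0.00364 to 0.304 over 22 alternatives and was under 0.05 in 13 of them, so its side of the threshold turned on the settings. The count table also lists 65 GAPDH pseudogenes that together held 3.89% of the reads assigned to GAPDH and its pseudogenes, and GAPDH shares 17.6% of its exonic bases with an antisense transcript.

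TPI1, the isomerase that interconverts the products of aldolase, was at 909, 953 and 972 CPM in LNCaP DMSO and at 815, 721 and 777 CPM after treatment. The treated libraries lay below the controls, with a log2 fold change of -0.26 (SE 0.121, adjusted p = 0.315). ENO1, the main enolase, was at 1131, 1259 and 1399.5 CPM and 1064, 1019 and 1062 CPM, again without overlap, with a log2 fold change of -0.24 (SE 0.120, adjusted p = 0.384). Neither difference passed the test.

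PGK1, the phosphoglycerate kinase that yields the first ATP of glycolysis, was at 687, 843 and 759 CPM in DMSO and at 561, 672 and 800.4 CPM in treated LNCaP libraries. The groups overlapped, and the log2 fold change was -0.12 (SE 0.132, adjusted p = 0.761). PKM, which makes pyruvate, was at 956, 1032 and 997 CPM and 1049, 913 and 879 CPM, with a log2 fold change of -0.04 (SE 0.122, adjusted p = 0.930). LDHB, the subunit more typical of tissues that consume lactate, was at 429.6, 511 and 537 CPM and 444, 390.3 and 517 CPM, with a log2 fold change of -0.09 (SE 0.134, adjusted p = 0.847). All these groups overlapped. The 95% interval for LDHB ran from -0.358 to 0.182, and that for LDHA from -0.883 to -0.365. The model did not test these 2 responses against each other.

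PFKP, the platelet form of phosphofructokinase, was at 50.7, 41.9 and 78.3 CPM and 39.0, 46.1 and 48.6 CPM in LNCaP, with a log2 fold change of -0.35 (SE 0.289, adjusted p = 0.664). ENO2, the neuronal enolase, held 2 to 7 counts per LNCaP library, at 5.63, 5.24 and 9.79 CPM and 11.7, 8.13 and 8.45 CPM, with a log2 fold change of 0.36 (SE 0.556, adjusted p = 0.862). The 95% interval for ENO2 ran from -0.76 to 1.48, too wide at this depth to read a direction. The remaining 6 tested enzymes had overlapping groups and log2 fold changes from -0.26 for GPI to 0.64 for ALDOC: HK1, the constitutive hexokinase that traps glucose in the cell, GPI, which turns glucose 6-phosphate into fructose 6-phosphate, the liver and muscle phosphofructokinases PFKL and PFKM, ALDOC, the brain form of aldolase, and PGAM1, a phosphoglycerate mutase. Over DMSO and treated LNCaP libraries HK1 ranged from 60.2 to 113 CPM, GPI from 492 to 812 CPM, PFKL from 71.8 to 102 CPM, PFKM from 74.1 to 122 CPM, ALDOC from 15.4 to 50.7 CPM and PGAM1 from 125 to 173 CPM. In all, 11 of the 15 tested enzymes had a fitted log2 fold change below 0, against 49.5% of all genes, and their median was -0.12 against 0.00 for all genes. The 13 other tested members had a median of 0.02, with 5 below 0.

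Among genes that feed or steer the pathway, SLC2A1, the glucose transporter GLUT1, was at 52.1, 49.7 and 43.3 CPM in LNCaP DMSO and 42.9, 40.7 and 57.0 CPM after treatment, and these overlapped, with a log2 fold change of 0.02 (SE 0.275, adjusted p = 0.989). PDK1, the kinase that shuts pyruvate dehydrogenase and so keeps pyruvate out of the citric acid cycle, was at 35.2, 41.9 and 28.0 CPM and 23.4, 19.0 and 19.0 CPM. The treated libraries were all lower, at 6 to 9 counts against 16 to 25, but the log2 fold change of -0.73 (SE 0.373, adjusted p = 0.394) did not pass the test. PFKFB3, which makes the activator of phosphofructokinase, was at 19.7, 15.7 and 12.6 CPM and 11.7, 13.6 and 14.8 CPM, with a log2 fold change of -0.20 (SE 0.455, adjusted p = 0.905). GBE1, which branches glycogen, had a log2 fold change of -0.08 (SE 0.395, adjusted p = 0.964), from 25.4, 18.3 and 22.4 CPM to 15.6, 27.1 and 19.0 CPM. PGM1, which links glycogen to glucose 6-phosphate, had one of 0.44 (SE 0.329, adjusted p = 0.602), from 39.4, 23.6 and 29.4 CPM to 54.6, 51.5 and 27.5 CPM. Both overlapped between groups.

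HIF1A itself was at 64.8, 81.2 and 76.9 CPM in LNCaP DMSO and at 62.4, 54.2 and 106 CPM after SEL120-34A. The treated values enclosed the controls, and the log2 fold change was 0.10 (SE 0.242, adjusted p = 0.918). EGLN3, a prolyl hydroxylase that HIF1A itself induces, was at 28.2, 18.3 and 33.6 CPM and 39.0, 48.8 and 35.9 CPM, without overlap but not past the test, with a log2 fold change of 0.58 (SE 0.346, adjusted p = 0.485). VEGFA, the main signal for new blood vessels, was at 39.4, 34.0 and 40.5 CPM and 50.7, 46.1 and 50.7 CPM, again higher in each treated library and not past the test, with a log2 fold change of 0.38 (SE 0.294, adjusted p = 0.629).

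BNIP3 and BNIP3L encode related receptors that hand mitochondria to autophagy. In LNCaP, BNIP3 was at 373, 408 and 376 CPM and 363, 358 and 408 CPM, with a log2 fold change of 0.00 (SE 0.147, adjusted p = 0.998), and BNIP3L was at 141, 120.4 and 115 CPM and 101, 133 and 133 CPM, with one of 0.02 (SE 0.190, adjusted p = 0.989). The 95% interval for BNIP3 ran from -0.29 to 0.30. P4HA1, a subunit of the enzyme that hydroxylates collagen, was at 43.7, 49.7 and 48.9 CPM and 35.1, 35.2 and 44.4 CPM, with a log2 fold change of -0.24 (SE 0.283, adjusted p = 0.778), and HILPDA, which slows the breakdown of lipid droplets, had one of -0.26 (SE 0.259, adjusted p = 0.744), with libraries from 40.7 to 80.3 CPM. None of the 5 tested genes in the group of further HIF targets passed the test in LNCaP. In that line groups did not overlap for 8 of the 28 tested genes (3 higher and 5 lower), against 19.4% of all genes (8.76% higher and 10.7% lower).

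**Figure D2:**
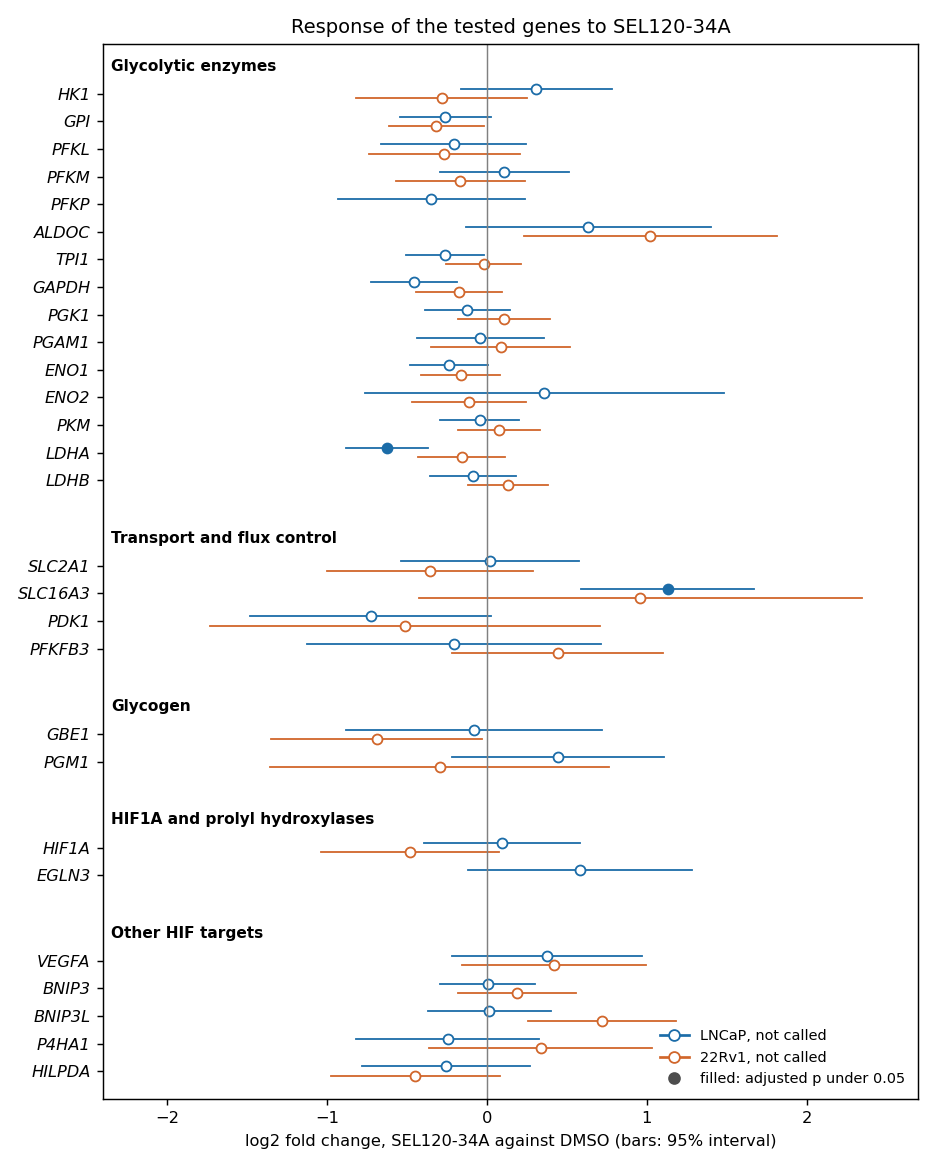
Log2 fold change of SEL120-34A against DMSO for the 28 tested genes by role, with 95% intervals, in LNCaP (blue) and 22Rv1 (orange), with filled points for an adjusted p under 0.05. Only LDHA and SLC16A3 in LNCaP are filled, and PFKP and EGLN3 are not drawn for 22Rv1 because no library there held more than 3 counts.

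The same comparison in 22Rv1 gave no call among the 28 genes, although 5.7% of all 7086 genes passed the same edgeR test there. At an unadjusted p under 0.05 there were 4 of 28, against 19.1% of all genes: BNIP3L and ALDOC with fitted values above 0, GPI and GBE1 below. Limma-trend called none, and neither did the DESeq2 Wald test, which gave no adjusted p for 10 of them. The nearest was BNIP3L, at 72.6, 46.8 and 53.7 CPM in DMSO and at 113, 73.0 and 88.4 CPM after SEL120-34A. The lowest treated library stood just above the highest control, and the log2 fold change was 0.72 (SE 0.230, adjusted p = 0.0539). Without 22Rv1 DMSO replicate 1 it passed the test (0.86, adjusted p = 0.0409), and thinned to the smallest total it was 0.26 (adjusted p = 0.805). BNIP3, its relative, was at 157, 142 and 138 CPM and 218, 103 and 157 CPM, with the treated libraries on both sides of the controls and a log2 fold change of 0.19 (SE 0.183, adjusted p = 0.632).

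LDHA in 22Rv1 was at 609, 511 and 637 CPM in DMSO and 537, 472 and 548 CPM in treated libraries, which overlapped. The log2 fold change was -0.16 (SE 0.136, adjusted p = 0.583). LDHB was at 866, 749 and 859.9 CPM and 934, 849.8 and 898 CPM, with a log2 fold change of 0.13 (SE 0.124, adjusted p = 0.626). SLC16A3 was scarce in this line, with 2 to 4 counts in every library, at 7.85, 5.62 and 2.39 CPM and 5.51, 12.9 and 11.4 CPM. Its log2 fold change of 0.96 (SE 0.686, adjusted p = 0.488) had a 95% interval from -0.42 to 2.35, so a change as large as that in LNCaP was not detectable at this depth.

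The remaining enzymes of 22Rv1 gave no difference past the test. GAPDH was at 8941, 6449.9 and 9256 CPM and 6694, 7666 and 7285 CPM, with a log2 fold change of -0.17 (SE 0.132, adjusted p = 0.522). TPI1 was at 1398, 1291 and 1478 CPM and 1229, 1506 and 1352 CPM, with one of -0.02 (SE 0.117, adjusted p = 0.954). PGK1 was at 416, 380.0 and 477 CPM and 449, 395 and 511 CPM, with one of 0.11 (SE 0.142, adjusted p = 0.754). For each of these genes the groups overlapped. PKM was at 664, 635 and 770.5 CPM and 785, 639.5 and 733 CPM, with a log2 fold change of 0.08 (SE 0.126, adjusted p = 0.807), and ENO2 at 173, 161 and 199 CPM and 159.8, 202 and 139.8 CPM, with one of -0.11 (SE 0.177, adjusted p = 0.799). ALDOC was at 21.6, 16.8 and 15.5 CPM and 33.1, 25.8 and 45.6 CPM, without overlap, with a log2 fold change of 1.02 (SE 0.391, adjusted p = 0.123). The other tested enzymes (HK1, GPI, PFKL, PFKM, PGAM1 and ENO1) had log2 fold changes from -0.32 for GPI to 0.09 for PGAM1. Over both arms of 22Rv1 HK1 ranged from 45.6 to 68.7 CPM, GPI from 419 to 686 CPM, PFKL from 60.1 to 108 CPM, PFKM from 94.4 to 142 CPM, PGAM1 from 76.7 to 163 CPM and ENO1 from 901 to 1145 CPM. PFKP held 1, 1 and 1 counts in DMSO and 0, 1 and 0 in treated libraries, too few for a fold. The median over the enzymes was -0.13 with PFKP left out, and 10 of 15 were fitted below 0, PFKP included, against 49.6% of all genes.

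Outside the enzymes, SLC2A1 in 22Rv1 was at 31.4, 33.7 and 52.5 CPM and 30.3, 21.5 and 39.9 CPM, with a log2 fold change of -0.35 (SE 0.320, adjusted p = 0.607). PDK1 was at 13.7, 13.1 and 7.16 CPM and 5.51, 4.29 and 11.4 CPM, at most 7 counts a library, with one of -0.51 (SE 0.603, adjusted p = 0.718). PFKFB3 was at 23.6, 41.2 and 27.4 CPM and 38.6, 34.3 and 48.5 CPM, with one of 0.44 (SE 0.326, adjusted p = 0.507). All 3 overlapped between groups. GBE1 was at 31.4, 52.4 and 60.8 CPM and 33.1, 17.2 and 37.1 CPM, with a log2 fold change of -0.69 (SE 0.327, adjusted p = 0.235), and PGM1 at 17.7, 13.1 and 13.1 CPM and 16.5, 4.29 and 11.4 CPM, with one of -0.30 (SE 0.526, adjusted p = 0.825). HIF1A was at 64.8, 73.0 and 70.4 CPM and 44.1, 30.0 and 68.5 CPM, where 2 of 3 treated libraries lay below the controls, with a log2 fold change of -0.48 (SE 0.275, adjusted p = 0.357). EGLN3 held 1 count in the DMSO libraries and 1 in the treated ones. VEGFA was at 51.0, 61.8 and 27.4 CPM and 68.9, 60.1 and 48.5 CPM, with a log2 fold change of 0.42 (SE 0.284, adjusted p = 0.456), P4HA1 at 21.6, 31.8 and 21.5 CPM and 24.8, 42.9 and 28.5 CPM, with one of 0.34 (SE 0.345, adjusted p = 0.660), and HILPDA had one of -0.45 (SE 0.262, adjusted p = 0.369), with libraries from 42.8 to 78.6 CPM. The groups of these HIF targets overlapped, and for 2 of the 28 genes in 22Rv1 they did not, against 23% of all genes.

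Whether the inhibitor acted differently in the lines was tested as the difference between its effects (LNCaP minus 22Rv1). None of the 28 genes passed, against 0.734% of all genes, and 2 had an unadjusted p under 0.05, against 11.4%. Limma-trend called none, nor did DESeq2, which gave no adjusted p for 16 of the 28. The 2 were LDHA, with a log2 difference of -0.47 (SE 0.187, adjusted p = 0.322), and BNIP3L, with -0.71 (SE 0.297, adjusted p = 0.349). The fall of LDHA in LNCaP was therefore not shown, after adjustment, to differ from the value in 22Rv1. The unadjusted 95% interval of the difference ran from -0.84 to -0.09. For SLC16A3 the difference was 0.17 (SE 0.940, adjusted p = 0.972), with an interval from -1.73 to 2.07.

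LDHA and LDHB subunits combine into the same tetramers, so their counts were also set against each other within each library, a measure chosen after the values had been seen. LDHA made up 70.7%, 69.7% and 66.6% of the LDHA and LDHB counts in LNCaP DMSO and 55.3%, 64.4% and 60.9% after SEL120-34A. In 22Rv1 the shares were 41.3%, 40.6% and 42.5% in DMSO and 36.5%, 35.7% and 37.9% in treated libraries. In both lines each treated library was below each control. Single genes had groups without overlap for 19.4% of all genes in LNCaP and 23% in 22Rv1. The share of other gene pairs whose ratio separates the arms was not computed. The mean share was 69.0% ± 2.12 against 60.2% ± 4.58 (SD, n = 3 each) in LNCaP and 41.5% ± 1.01 against 36.7% ± 1.09 (SD, n = 3 each) in 22Rv1. A two-sided exact permutation test gave p = 0.10 in each line, the smallest p that 3 libraries against 3 allow. Groups without overlap always give this p, so it adds nothing to the values. In LNCaP the share also draws on the fall of LDHA already described in the same libraries. In PC3 the shares were 66.2% (exact 95% binomial interval 64.0% to 68.4%) and 64.4% (61.7% to 67.0%). These shares are of counted 3′ ends and not of protein, and 33.4% of the exonic bases of LDHB are shared with an overlapping annotated gene that held no counts.

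**Figure D3:**
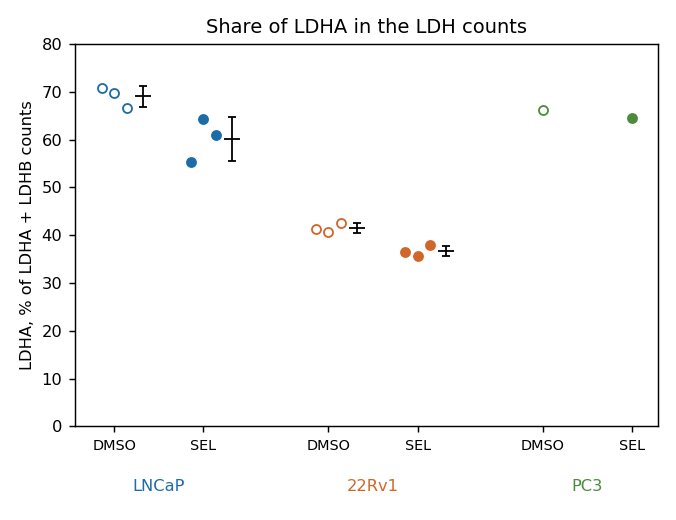
LDHA counts as a percentage of LDHA plus LDHB counts in every library, with open circles for DMSO, filled circles for SEL120-34A and black bars for the mean and SD of 3 libraries. Treated libraries lie below their controls in LNCaP (60.2% against 69.0% on average) and in 22Rv1 (36.7% against 41.5%), and PC3 has 1 library per arm.

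More of these genes differed between the untreated lines than between arms. Between the DMSO libraries of LNCaP and 22Rv1, 17 of the 28 genes passed the test, 11 higher and 6 lower in LNCaP, but so did 49% of all genes (24% higher and 25% lower). Groups did not overlap for 17 of 28, against 56.4% of all genes. LNCaP wells were coated and those of the other lines are not said to be, and line and coating cannot be told apart. The DMSO libraries are the same ones that served as controls above. The low-count filter keeps a gene with enough counts in 1 group alone. PFKP, EGLN3, SLC16A3, PDK1 and PGM1 passed it only through LNCaP, and ENO2 and PFKFB3 only through 22Rv1. GBE1 would not have passed through the LNCaP libraries alone. The calls of all these genes between lines were favoured by the filter, so their p-values are no separate evidence.

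**Figure D4:**
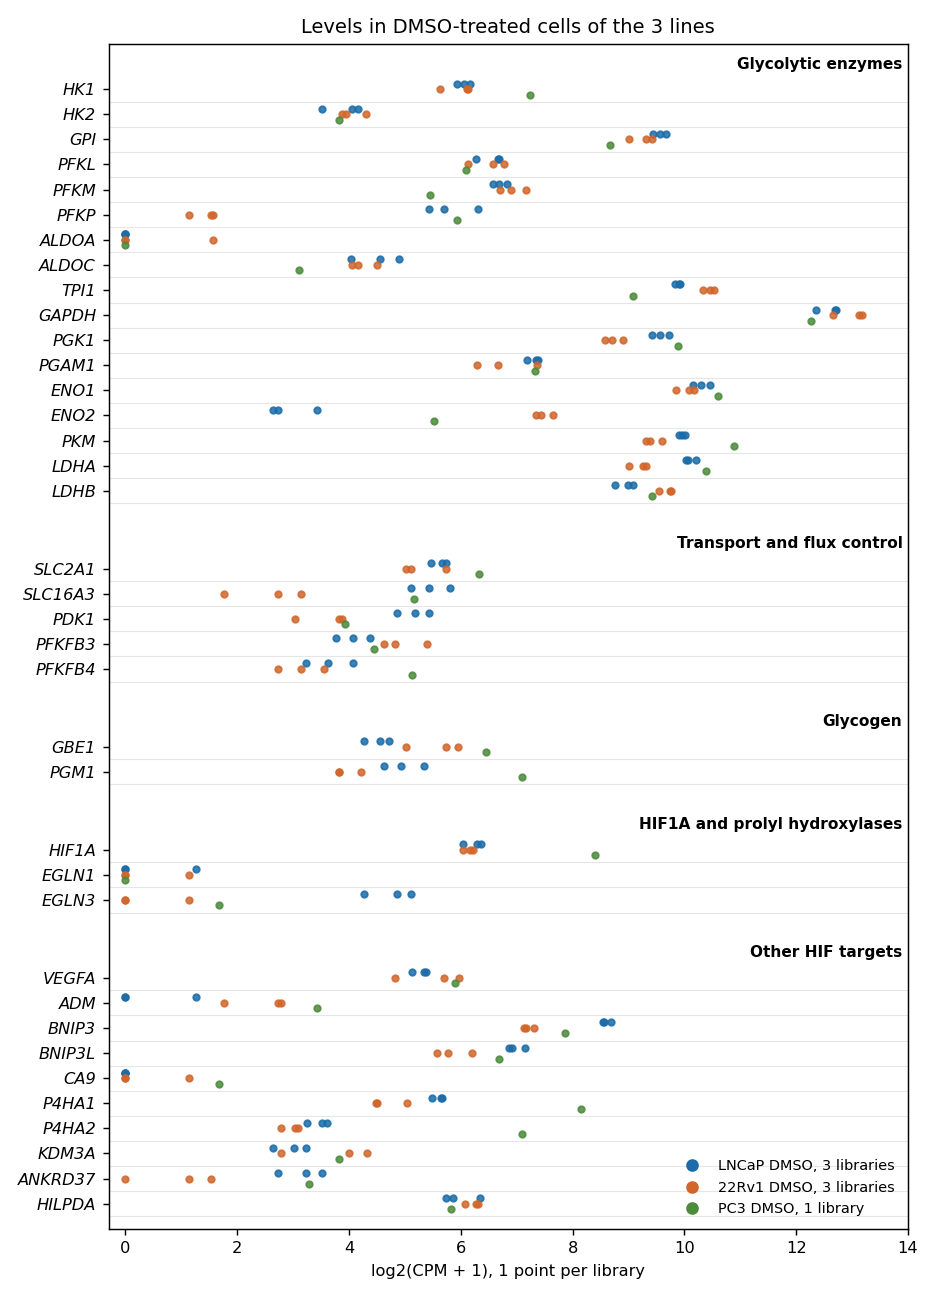
Level of all 37 genes in the DMSO libraries on a log2(CPM + 1) axis, by role, with 1 point per library for LNCaP (blue, 3 libraries), 22Rv1 (orange, 3) and PC3 (green, 1). PFKP, SLC16A3 and EGLN3 lie far higher in LNCaP than in 22Rv1 and ENO2 far lower, HIF1A, P4HA1, P4HA2 and PGM1 lie highest in PC3, and ALDOA and EGLN1 are near 0 throughout.

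Isozymes of the same step parted the lines. For phosphofructokinase, PFKP held 36, 16 and 56 counts in the LNCaP DMSO libraries and 1, 1 and 1 in those of 22Rv1, a ratio of 37.5 in scaled counts (95% counting interval 12.5 to 185), and passed the test (adjusted p = 2.97e-11), whereas PFKL and PFKM had log2 differences of 0.07 and -0.25 that did not. For enolase, ENO2 was at 5.63, 5.24 and 9.79 CPM in LNCaP and 173, 161 and 199 CPM in 22Rv1, a log2 difference (LNCaP minus 22Rv1) of -4.59 (SE 0.275, adjusted p = 1.71e-17). ENO1, at 1131, 1259 and 1399.5 CPM and 1086, 923 and 1145 CPM, had one of 0.27 (SE 0.117, adjusted p = 0.0560) and overlapped. For lactate dehydrogenase the subunits went in opposite directions: LDHA was higher in LNCaP by 0.90 (SE 0.126, adjusted p = 1.29e-07) on the log2 scale, and LDHB had a difference of -0.74 (SE 0.124, adjusted p = 3.85e-06). Neither LDHA nor LDHB overlapped between the lines, with the per-library CPM given above.

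Along the lower pathway, PGK1 was higher in LNCaP, with a log2 difference of 0.84 (SE 0.132, adjusted p = 1.30e-06), and so was PKM, with 0.53 (SE 0.121, adjusted p = 3.85e-04). TPI1 was lower in LNCaP, with -0.55 (SE 0.116, adjusted p = 1.20e-04). In these genes no library of one line reached the range of the other. GAPDH was called lower in LNCaP, with -0.41 (SE 0.132, adjusted p = 0.0104), but the groups overlapped: 22Rv1 DMSO replicate 2, at 6449.9 CPM, lay below 2 of the LNCaP libraries. GAPDH no longer passed without LNCaP DMSO replicate 1 (-0.30, adjusted p = 0.0813) or without 22Rv1 DMSO replicate 3 (-0.32, adjusted p = 0.0633). GPI, PGAM1 and ENO1 were at an unadjusted p under 0.05 without passing the test, with log2 differences of 0.31, 0.41 and 0.27, and HK1 and ALDOC had differences of 0.09 and 0.27.

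Of the transport and control genes, SLC16A3 was higher in LNCaP, with a log2 difference of 3.06 (SE 0.430, adjusted p = 1.43e-07), and PDK1 too, with 1.65 (SE 0.372, adjusted p = 3.24e-04). PFKFB3 was lower in LNCaP, with -0.91 (SE 0.341, adjusted p = 0.0252), which did not pass without LNCaP DMSO replicate 2 (adjusted p = 0.0522), LNCaP DMSO replicate 3 (0.131) or 22Rv1 DMSO replicate 2 (0.137). SLC2A1 did not differ past the test, with 0.24 (SE 0.254, adjusted p = 0.448) and a 95% interval from -0.27 to 0.75. The glycogen genes again went opposite ways: PGM1 was higher in LNCaP, with 1.13 (SE 0.361, adjusted p = 0.00875), and GBE1 lower, with -1.12 (SE 0.297, adjusted p = 0.00176). Leaving out LNCaP DMSO replicate 1 put PGM1 at 0.90 (adjusted p = 0.0864). SLC16A3, PDK1, PFKFB3, PGM1 and GBE1 are among the genes named above whose calls between lines were favoured by the low-count filter.

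HIF1A mRNA did not differ past the test between LNCaP and 22Rv1, with a log2 difference of 0.08 (SE 0.225, adjusted p = 0.784), and neither did VEGFA, with -0.20 (SE 0.270, adjusted p = 0.557), nor HILPDA, with -0.18 (SE 0.221, adjusted p = 0.534). Other members went both ways. ENO2, GBE1 and PFKFB3 were lower in LNCaP, as given above. Of the untested genes, ADM held 1 count in LNCaP DMSO and 8 in 22Rv1 DMSO, and ANKRD37 held 14 and 2. EGLN3, BNIP3, BNIP3L and P4HA1 were higher in LNCaP. EGLN3 held 20, 7 and 24 counts in the LNCaP DMSO libraries and 0, 0 and 1 in those of 22Rv1, a ratio of 53.1 in scaled counts (95% counting interval 9.11 to 2139, adjusted p = 6.55e-08). BNIP3 (ENSG00000176171.12, chromosome 10, 131967684 to 131981967) was higher by 1.41 (SE 0.154, adjusted p = 5.46e-10) on the log2 scale, BNIP3L by 1.14 (SE 0.197, adjusted p = 6.65e-06) and P4HA1 by 0.94 (SE 0.275, adjusted p = 0.00461). For EGLN3, BNIP3, BNIP3L and P4HA1 all LNCaP libraries lay above all 22Rv1 libraries. The count table lists 39 BNIP3 pseudogenes that held 12.9% of the reads assigned to BNIP3 and its pseudogenes, and how the counting split reads among them was not tested.

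The 9 genes left out of the test were mostly near the counting limit in LNCaP and 22Rv1. CA9, the carbonic anhydrase often used as a marker of hypoxia, had 0 counts in the 6 LNCaP libraries and 1 count in the 6 of 22Rv1. The 3-count limit was 12.9 CPM in the shallowest library taken alone. The 6 libraries of a line together set a tighter limit, which was not computed. In PC3 it had 2 counts in DMSO and 4 after SEL120-34A. ADM, which encodes the vasodilator adrenomedullin, was at 5.89, 5.62 and 2.39 CPM in 22Rv1 DMSO and 27.6, 21.5 and 5.70 CPM in treated libraries, with 2 to 10 counts each, and had at most 1 count in any LNCaP library. HK2, the inducible hexokinase, was at 10.5 to 25.3 CPM in LNCaP and 5.51 to 18.7 CPM in 22Rv1. PFKFB4, a relative of PFKFB3, was at 0 to 16.3 CPM in LNCaP and 5.62 to 30.3 CPM in 22Rv1, with each pair of arms overlapping. P4HA2, a relative of P4HA1, KDM3A, a histone demethylase, and ANKRD37, an ankyrin-repeat protein, held at most 8, 16 and 6 counts in any of these 12 libraries.

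ALDOA, the aldolase of most tissues, was listed with 1 count over all 14 libraries, and EGLN1, the main prolyl hydroxylase, with 2. In the annotation, 42.8% of the exonic bases of ALDOA lie in an overlapping protein-coding gene on the same strand (ENSG00000285043), and 55.8% of those of EGLN1 in another (ENSG00000287856), and both of these genes also had 0 counts in every library. Whether reads that fall in 2 genes were dropped was not tested here, so the values of ALDOA and EGLN1 are not read as absence.

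PC3 had the highest DMSO level of the 3 lines for some HIF-related genes and not for others. HIF1A was at 338 CPM in its DMSO library, P4HA1 at 282 CPM, P4HA2 at 136 CPM and PGM1 at 136 CPM. No LNCaP or 22Rv1 library of either arm reached these levels, and the highest were 105.6, 49.7, 13.8 and 54.6 CPM. PKM, at 1891 CPM, and PGK1, at 938 CPM, were likewise above all libraries of the other lines, and TPI1, at 540.0 CPM, below all of them. LDHA, ENO1, HK1, SLC2A1, GBE1 and PFKFB4 also lay above that range, and GPI, PFKM and ALDOC below it. The share of all genes outside the range was not computed, so this is not read as particular to these members. EGLN3 held 2 counts in PC3 DMSO, as in 22Rv1 near 0, and PFKP was at 59.9 CPM, within the LNCaP range. Other HIF-related genes were lower in PC3 DMSO than the LNCaP DMSO mean: BNIP3 (231 against 386 CPM), BNIP3L (102 against 125), PDK1 (14.2 against 35.0) and SLC16A3 (34.8 against 43.6). HILPDA, at 55.5 CPM, was below the DMSO means of LNCaP (63.3 CPM) and 22Rv1 (74.0 CPM). With 1 library, these differences have no replicate check.

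SEL120-34A in PC3 was described by the ratio of its 2 libraries for the 34 genes with more than 3 counts in either. The median log2 ratio was 0.05, against -0.03 over 11985 genes. The 95% counting interval, which covers counting error only, lay above 0 for 6 genes and below 0 for 1, against 5.38% and 3.89% of the 11985 genes. The interval narrows as counts rise, so these shares depend on how highly a gene is counted. The 6 were PFKM, at 42.5 and 73.6 CPM in DMSO and treated cells with a log2 ratio of 0.76 (0.13 to 1.46), TPI1 with 0.34 (0.15 to 0.54), PGK1 with 0.24 (0.09 to 0.39), LDHB with 0.24 (0.06 to 0.42), SLC16A3 with 0.81 (0.13 to 1.59) and BNIP3 with 0.33 (0.03 to 0.63). SLC16A3 stood at 34.8 and 63.1 CPM. BNIP3L was lower in the treated library, at 102 and 56.1 CPM, with a log2 ratio of -0.84 (-1.49 to -0.27). LDHA, at 1333 and 1454 CPM, had a log2 ratio of 0.13 (-0.00 to 0.25), and GAPDH one of -0.06 (-0.13 to 0.01).

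The remaining PC3 ratios had intervals that held 0. They included HIF1A with -0.20 (-0.49 to 0.07), VEGFA with 0.47 (-0.11 to 1.08), SLC2A1 with -0.17 (-0.77 to 0.40), PDK1 with -0.01 (-1.49 to 1.37), PKM with 0.01 (-0.10 to 0.12), ENO1 with -0.10 (-0.22 to 0.03), ENO2 with 0.18 (-0.55 to 0.91) and PFKP with -0.43 (-1.19 to 0.26). Among the rest, GBE1 had -0.47 (-1.10 to 0.10), PGM1 -0.34 (-0.81 to 0.11), PFKFB3 0.02 (-1.15 to 1.14) and P4HA1 0.10 (-0.19 to 0.38). Of the 16 enzymes 3 had a log2 ratio below 0, and of the 18 other genes 10, against 52% of all genes.

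**Figure D5:**
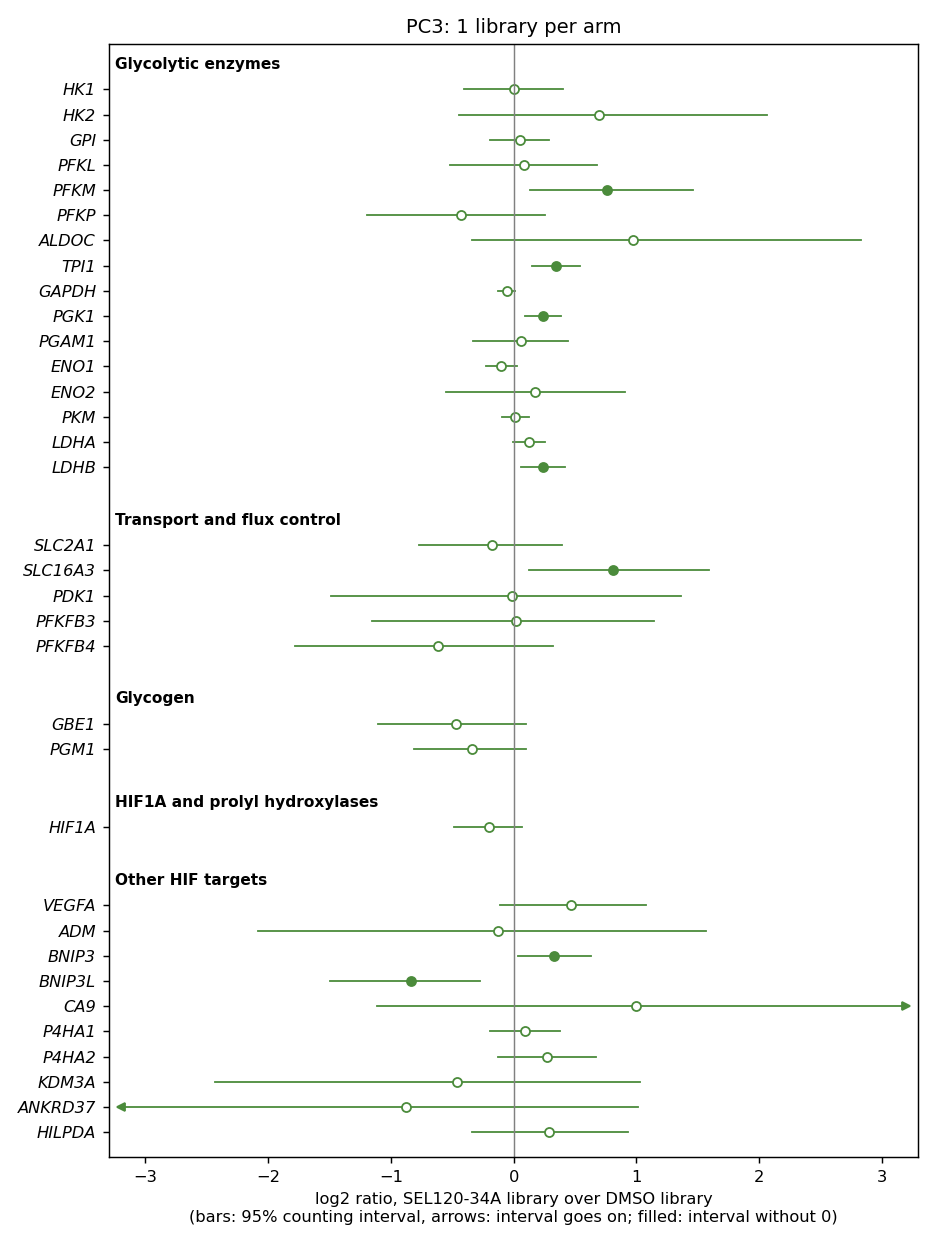
Log2 ratio of the PC3 SEL120-34A library over the PC3 DMSO library for the 34 genes with more than 3 counts in either, by role, with bars for the 95% counting interval and filled points where it leaves out 0. The 6 filled points above 0 and BNIP3L below it are those named in the text, and there is no replicate to compare them with.

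Beside the 37 genes, 96 further genes of glucose use and of the hypoxia pathway were listed, of which 55 were tested. In LNCaP 2 of 55 were called, both higher: IGFBP3, a binding protein of insulin-like growth factors, with a log2 fold change of 3.10 (SE 0.256, adjusted p = 1.35e-11), and CA12, a carbonic anhydrase of the cell surface, with 1.15 (SE 0.278, adjusted p = 0.0131). The CA12 call was lost without DMSO replicate 2 or 3 or SEL120-34A replicate 1 or 2 (adjusted p of 0.0577 to 0.141). IGFBP3 was at 101, 34.0 and 16.8 CPM in DMSO and 561, 436 and 365 CPM in treated LNCaP. In 22Rv1 5 of 55 were called. TKT, the transketolase of the pentose phosphate pathway, rose from 809, 801 and 933 CPM to 1309, 1335 and 1184 CPM, with a log2 fold change of 0.60 (SE 0.119, adjusted p = 9.06e-04). DDIT4, an inhibitor of mTORC1 signalling that stress induces, rose from 23.6, 28.1 and 22.7 CPM to 99.2, 129 and 79.9 CPM, with 2.03 (SE 0.315, adjusted p = 2.22e-05). PDK4, a relative of PDK1, went from 7 counts in the 3 DMSO libraries to 48 in the treated ones, a ratio of 13.7 in scaled counts (95% counting interval 6.15 to 35.8, adjusted p = 1.30e-05). It passed the low-count filter only through the treated 22Rv1 libraries, so its p-value is no separate evidence of the rise. DLAT, a subunit of the pyruvate dehydrogenase complex that the PDK kinases restrain, fell, with -0.92 (SE 0.248, adjusted p = 0.0199), and HIF1AN, which blocks the activation domain of HIF1A, fell with -1.26 (SE 0.394, adjusted p = 0.0483). The HIF1AN call was lost with any single 22Rv1 library left out (adjusted p of 0.0643 to 0.216), and that of DLAT without 22Rv1 DMSO replicate 2 (0.0884), SEL120-34A replicate 1 (0.0983) or SEL120-34A replicate 2 (0.0887). With libraries thinned to the smallest total, TKT (0.47, adjusted p = 0.0648) and DDIT4 (1.62, adjusted p = 0.0593) also missed the threshold.

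Between the DMSO libraries of the lines 28 of these 55 genes were called, close to the share of all genes given above. Of these, 13 were higher in LNCaP, among them, each with its log2 difference, PDK3 (2.98), LDHD (2.17), DDIT4 (1.93), PYGL (1.59), AK4 (1.30), BPGM (1.17), MPC2 (1.08), TALDO1 (1.02), PDHX (0.81), PCK2 (0.80), MIF (0.77) and FAM162A (0.52). The 15 lower were CA12 (-2.98), PDK2 (-2.51), CITED2 (-1.35), HIF1AN (-1.24), RPIA (-1.16), VHL (-0.98), G6PC3 (-0.88), PYGB (-0.88), ARNT (-0.87), PGLS (-0.87), PGD (-0.62), TKT (-0.49), BSG (-0.44), and NOS3 and PLOD2, which held 4 and 1 counts in all LNCaP DMSO libraries against 237 and 47 in those of 22Rv1. NOS3, PLOD2 and PDK2 were too scarce in LNCaP DMSO to pass the low-count filter there, and PDK3, LDHD and PYGL too scarce in 22Rv1 DMSO. The calls of these genes were therefore favoured by the filter. Over the 12 libraries PDK3 and LDHD held 126 counts each, PYGL 97 and PDK2 82. The rest of this list was not checked for the same effect. As background, VHL targets HIF1A for destruction, HIF1AN and CITED2 limit its activity, ARNT is its partner, and PDK2 and PDK3 are relatives of PDK1.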

How the data were processed

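RNA from the 14 samples was sequenced by BRB-seq, a bulk method that tags the 3′ end of each transcript. Per the submitters' processing notes and the study's methods, reads were aligned and counted per gene with STARsolo on GRCh38.p13, and the authors deposited raw counts and, for 9638 genes, log2 CPM scaled by the trimmed mean of M values. These log2 values were rebuilt from the counts to within 5e-14, so the CPM given here use the authors' factors. Since only 3′ ends are counted, levels are compared between libraries and not between genes.

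The 12 LNCaP and 22Rv1 libraries were fitted together as 4 groups with edgeR 4.0.16 (quasi-likelihood test, trimmed mean of M values, filterByExpr, Benjamini-Hochberg over 7086 genes, 8 residual degrees of freedom) in R 4.3.3. Alternatives used DESeq2 1.42.0 and limma 3.58.1. PC3 was not tested; its intervals are exact and, like the 3-count floors, cover counting error only. Described library by library were the members called in any of the 4 contrasts and SLC2A1, HIF1A and VEGFA. CA9 in LNCaP and 22Rv1, and EGLN3 in treated 22Rv1, are given by summed counts. Others are given by ranges, except ENO1, ALDOC and ADM, shown by library after their values were seen. Values of 2 further genes are not reported here. Members and lists were chosen with earlier results of these data known. Gene coordinates are from GENCODE 44 (GRCh38). Deviations of libraries with the same replicate number in the 2 arms of a line had correlations from -0.05 to 0.115. The main model used no pairing, and at this depth low correlations cannot show that pairing was absent.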

Additional observations from a re-analysis of the deposited data

Results flagged for a closer look

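None of the 37 genes was flagged. Among the further genes of glucose use and hypoxia, 3 differed between the lines in their response to SEL120-34A by the edgeR test of the difference (LNCaP minus 22Rv1, adjusted over 7086 genes). For IGFBP3 the log2 difference was 3.27 (SE 0.499, adjusted p = 1.29e-04). For TKT it was -0.68 (SE 0.173, adjusted p = 0.0461), with levels of 608 ± 55.1 CPM in DMSO and 559 ± 16.4 CPM after SEL120-34A (SD, n = 3 each) in LNCaP and of 848 ± 73.8 CPM and 1276 ± 80.9 CPM (SD, n = 3 each) in 22Rv1. For DDIT4 it was -1.55 (SE 0.398, adjusted p = 0.0494). The TKT call was lost in 16 of 21 alternatives and the DDIT4 call in 13 of 20, and that of IGFBP3 in 1 of 20, limma-trend (adjusted p = 0.0666). Groups had 3 libraries at most, too few to flag a single outlying library.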

How the results depend on the processing

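The count of members called in LNCaP, 2 in the test used, was 0 with libraries thinned to the smallest total, 1 with the DESeq2 Wald test, 0 with limma-trend and 1 to 3 with single libraries left out. The count of 0 in 22Rv1 became 1 with library totals alone as scaling (GPI at -0.47, adjusted p = 0.0412), which shifted the median of all genes by -0.14 in 22Rv1, by -0.08 in LNCaP and by -0.24 between the lines, and was 0 to 1 with single libraries left out. The interaction count stayed 0 under each alternative. The 17 calls between lines became 8 with at least 10 counts required in every library, which leaves fewer genes to test, and 11 after thinning, and were 16 to 19 with single libraries left out. With the replicate block the counts were 3, 0, 0 and 19, and whether the numbers mark a shared day is not stated. Of 112 values (28 members in 4 contrasts), 19 were called. Of their 2310 values under the alternatives, 20 had lost a call, 28 had gained one and none had reversed a call. Fits of each line alone do not exist for contrasts between lines, and SLC16A3 has no value at 10 counts per library. The cause of these moves was otherwise not tested. At 246063 to 909176 counts, members with few counts could change without being called.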
